A study of Mus musculus with 20 samples.

Results

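Cytoplasmic ribosomal protein genes encode the proteins of the ribosome outside mitochondria. They were taken as every row of the array that the platform annotation gives exactly 1 symbol of the form Rpl, Rps or Rplp with a number and an optional a, l or x. The rule found 36 genes, 22 of the large subunit and 14 of the small subunit, among 30142 genes measured. A symbol that RefSeq lists as a pseudogene, Rpl6l, was left out. RefSeq holds 81 protein-coding mouse genes with such a name, of which 38 are annotated here only in rows that carry several symbols and 7 in none. Rpl3, Rpl5, Rpl10, Rplp1, Rplp2, Rps6 and Rps27 are therefore not among the 36, so the set covers only part of the ribosome.

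The ribosome joins amino acids in the order that an mRNA sets. Its proteins are made in near-equal numbers, their genes are transcribed together in growing cells, and their mRNAs share a short pyrimidine tract at the 5′ end through which mTOR signalling adjusts their translation. Cdk4/6 inhibitors hold cells before S phase, and cisplatin (CDDP) crosslinks DNA. Mouse ribosomal protein genes have many near-identical pseudogene copies, so a probe for a gene may also read a copy. That share was not tested here.

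The mice were FVB/N animals of the CKO line, which carries floxed alleles, Rbf/f among them, and p107-/-, a loss that every group shares. Treated bladders (3 arrays, titled PALBO) came from bladders inoculated with adenovirus that codes for Cre. Those mice had a Cdk4/6 inhibitor, palbociclib, at 150 mg/kg into the peritoneum every day over 28 days, plus weekly CDDP doses of 6 mg/kg. The array titled PALBO-MET is a metastasis with no replicate, and its title alone links it to the drug. Metastases (4 arrays) have no organ in the labels. Tumour bladders (7 arrays) were inoculated with the same virus and not treated, and normal bladders (5 arrays) came from CKO mice without the virus. The labels do not say which promoter drives Cre or whether each array is a separate animal, so p-values measure the spread between these samples only. Whole tissue was used, and in such RNA fewer cells of a type cannot be told apart from less RNA per cell.

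The 5′ ends of the genes show what part of the family shares the textbook start. RefSeq promoters (GRCm38.p6) were matched by symbol for 31 of the 36 genes. Rps14, Rpl7, Rps20, Rpl8 and Rps29 had none. Each line below gives 60 bases, 30 before and 30 after the annotated start, in lower case. Capitals mark a C followed by at least 5 pyrimidines within 10 bases of that start, the letters of a terminal oligopyrimidine tract. Rpl38, Rps10, Rps18, Rpl7a, Rpl35 and Rps26 are shown because their runs are clear and because Rps26 and Rpl35 are among the genes that vary most between arrays. Rpl3l and Rpl10l, paralogues made mostly in muscle and testis, are shown as genes without a run. Rpl39l, also made mostly in testis, has one, and 11 of the 13 promoters without a run belong to other genes, Rplp0, Rps4x and Rpl4 among them.
Rpl38 (chr11:114668550-114668609, + strand): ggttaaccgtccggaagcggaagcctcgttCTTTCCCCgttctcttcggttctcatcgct
Rps10 (chr17:27635215-27635274, - strand): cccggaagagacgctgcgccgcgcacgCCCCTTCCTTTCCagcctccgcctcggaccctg
Rps18 (chr17:33955636-33955695, - strand): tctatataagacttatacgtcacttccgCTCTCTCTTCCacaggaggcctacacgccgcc
Rpl7a (chr2:26910777-26910836, + strand): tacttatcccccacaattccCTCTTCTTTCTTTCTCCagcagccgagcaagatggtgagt
Rpl35 (chr2:39005102-39005161, - strand): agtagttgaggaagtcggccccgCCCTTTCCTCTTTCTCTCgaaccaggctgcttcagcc
Rps26 (chr10:128626477-128626536, - strand): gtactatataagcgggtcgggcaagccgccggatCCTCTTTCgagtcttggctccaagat
Rpl3l (chr17:24727796-24727855, + strand): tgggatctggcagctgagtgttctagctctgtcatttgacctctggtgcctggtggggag
Rpl10l (chr12:66284372-66284431, - strand): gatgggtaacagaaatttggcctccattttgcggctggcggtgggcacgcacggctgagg
Rpl39l (chr16:10170198-10170257, + strand): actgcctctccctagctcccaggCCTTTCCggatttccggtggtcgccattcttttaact

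Such a run was found for 18 of the 31 genes (58.1%), against 5910 of the 27025 genes with a promoter in the RefSeq table (21.9%). The letters CCGGAAG, the core that ETS factors read, were searched on both strands of the 300 bases from 250 before the start to 50 after it. They were found for 14 of the 31 genes (45.2%) and for 9.93% of all. The letters AAGATGGC, part of the site of YY1, were in 1 of the 31 (Rpl22, 3.23%) and in 3.19% of all. These are matches of letters in windows set by annotated starts. Where a gene had several windows, a match in any of them counted and a window with a run was preferred for printing. Absence of a match says only that the letters are not in the windows searched.

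Among the 20 arrays the ribosomal protein genes differed more between arrays than between groups. The mean log2 level of the 36 genes, as processed by the authors with RMA, was 8.08, 7.63 and 8.48 on treated bladders 1, 2 and 3. It was 7.38 on PALBO-MET. Metastases 1 to 4 had 8.01, 8.07, 7.67 and 7.66. Tumour bladders ran from 7.04 on tumour 1 through a median of 7.72 to 8.53 on tumour 7. Normal bladders 1, 2, 4, 5 and 6 had 8.12, 8.15, 7.68, 7.76 and 7.74. Treated bladder 2 lay below all 5 normal bladders and treated bladder 3 above them, while tumour bladders covered the whole range of every other group. The group means were 8.06 ± 0.43 for treated bladders (SD, n = 3), 7.85 ± 0.22 for metastases (n = 4), 7.78 ± 0.50 for tumour bladders (n = 7) and 7.89 ± 0.22 for normal bladders (n = 5).

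**Figure D1:**
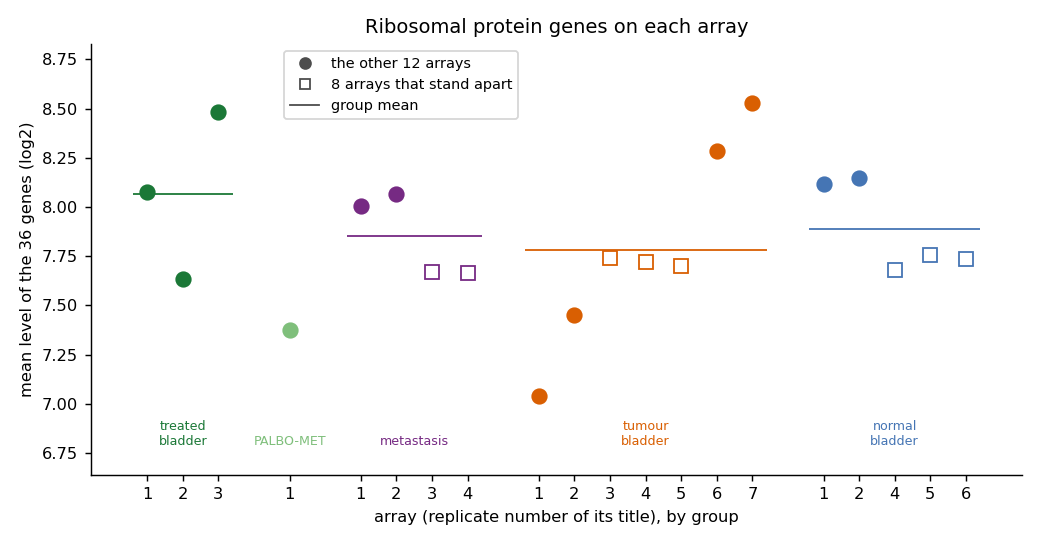
Mean log2 level of the 36 ribosomal protein genes (y axis) on each of the 20 arrays (x axis, by group), with filled circles for 12 arrays, open squares for the 8 arrays that stand apart and a line for each group mean. The 8 open squares lie between 7.66 and 7.76, while tumour bladders on the other arrays run from 7.04 to 8.53.

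A set of 8 arrays stands apart, and it holds arrays of every group but the treated bladders and PALBO-MET: normal 4, 5 and 6, tumour 3, 4 and 5, and metastasis 3 and 4. It was defined by the spread of dim rows (SD over 0.30) and by deviations that follow no other array (r under 0.25). Tumour 1 also exceeded the first limit, with an SD of 0.329. It stayed among the other 12 because its deviations followed tumour 2 (r = 0.65). On the 8 arrays the mean of the 36 genes lay between 7.66 and 7.76, and on the other 12 between 7.04 and 8.53. The r was taken over bright rows, and genes of the 36 are among them. The narrow range on the 8 arrays may therefore come in part from how they were chosen. Lists of cell type markers were narrow on the 8 arrays too. Smooth muscle genes averaged 6.67 to 6.83 on the 8 arrays and 4.93 to 9.74 on the 12. For luminal urothelial genes these ranges were 6.70 to 6.91 and 4.98 to 9.55, and for macrophage genes 6.57 to 6.80 and 5.82 to 8.44. Metastases 3 and 4 averaged 6.73 and 6.75 for smooth muscle, beside 6.75 to 6.83 on normal 4, 5 and 6. Rows with exactly the same deposited value on 2 arrays were then counted. Normal 1 and 2, tumour 2, 6 and 7 and metastasis 1 shared 99 to 147 such rows in each of 15 pairs, and treated 1, treated 3 and PALBO-MET shared 99 to 110 in each of 3 pairs. Tumour 1, metastasis 2 and treated 2 are in neither set and shared 0 to 2 such rows with any array. No row was shared between the 4 arrays with palbociclib in the title and any other array, so any processing apart from the others cannot be told apart from the treatment. The tissue labels held in part: the urothelial gene Upk1a, a plaque protein of the bladder surface, ran from 9.20 to 10.9 on treated bladders, 5.46 to 8.12 on metastases, 5.48 to 14.2 on tumour bladders and 8.04 to 12.3 on normal bladders, and was at 4.07 on PALBO-MET.

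In no comparison did a ribosomal protein gene pass an adjusted p of 0.05 in limma with Benjamini-Hochberg adjustment over all 30142 genes, where 0% of all genes passed too. The smallest adjusted p over all genes tested was 0.207 for metastases set against tumour bladders and 0.528 for metastases set against normal bladders. In the other 3 comparisons it was 0.998 or more. The counts below are therefore of directions and of unadjusted p under 0.05, given beside the same over all genes.

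The comparison of treated with tumour bladders asks how bladders that received the virus differ with and without the drugs. Of the 36 genes 34 had a higher mean in treated bladders and 2 a lower one, with a median log2 difference of 0.21, where 42.6% of all genes were higher and the median over all genes was -0.02. With unadjusted p under 0.05, 1 of the 36 was higher (0.182% of all genes) and 0 were lower (0.159%). That count in either direction was 4 without tumour 7 (1.47% of all genes) and 2 without tumour 6 (1.13%). It was 0 without tumour 4, tumour 5, treated 2 or treated 3 (0.348% to 1.32%). It was 5 with array weights (8.33% of all genes) and 3 with the replicate block (1.33%). With a trended prior, with quantile normalization renewed or with the row on the own chromosome it was 0 (0.275% to 0.338%). Groups did not overlap for 1 gene that was higher (0.073% of all genes) and for 0 that were lower (0.0564%). The near-uniform direction rests on 2 of the 3 treated arrays: 33 of the 36 genes lay above the tumour mean on treated 1, 9 on treated 2 and 33 on treated 3. Without treated 3, 25 genes were higher and the median was 0.08, and without treated 2 the median was 0.41. Without tumour 1 the median was 0.14, and without the 8 arrays that stand apart 31 genes were higher by a median of 0.15.

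Rps26, Rpl41, Rpl27, Rpl37a and Rpl32l had the widest differences, and 3 of these, Rps26, Rpl27 and Rpl37a, are among the 4 genes with the largest SD over the 20 arrays. Rps26, a small-subunit protein that touches the mRNA where it leaves the ribosome, was at 12.06, 10.74 and 13.47 on treated bladders 1, 2 and 3, against 9.28, 10.96 and 13.81 (lowest, median and highest) on tumour bladders, a difference of 0.88 ± 0.79 (SE). Rpl27, of the large subunit, was at 10.95, 9.48 and 12.66 on treated bladders, against 7.46, 9.76 and 13.37 on tumour bladders, a difference of 0.77 ± 0.97. Both genes were highest on a tumour array, tumour 7, so the groups overlapped throughout. Rpl37a, also of the large subunit, was at 12.03, 10.49 and 12.91 on treated bladders, against 9.07, 11.39 and 12.89 on tumour bladders. Rpl32l, annotated as a gene like that of the large-subunit protein L32, was at 8.62, 8.10 and 9.50 on treated bladders, against 6.94, 8.05 and 9.38 on tumour bladders. Its difference was 0.69 ± 0.43 (limma unadjusted p = 0.127, adjusted p = 0.99995).

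Rpl7, a large-subunit protein, was even across treated bladders at 7.32, 7.33 and 7.42, against 6.38, 6.96 and 7.51 on tumour bladders. The difference was 0.39 ± 0.20 (limma unadjusted p = 0.0695, adjusted p = 0.99995), and tumour 6 and 7 were within or above the range of treated bladders. Both genes that had a lower mean are testis paralogues. Rpl10l was at 4.16, 4.49 and 4.59 on treated bladders, against 4.22, 4.59 and 5.01 on tumour bladders, a difference of -0.22 ± 0.15. Rpl39l differed by -0.02 ± 0.17, with 4.90, 5.43 and 4.81 on treated bladders, against 4.73, 5.03 and 5.39 on tumour bladders. Over all arrays their means were 4.45 and 5.05, below the 40th percentile of row means at 5.099. Rows this dim can hold mostly background.

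**Figure D2:**
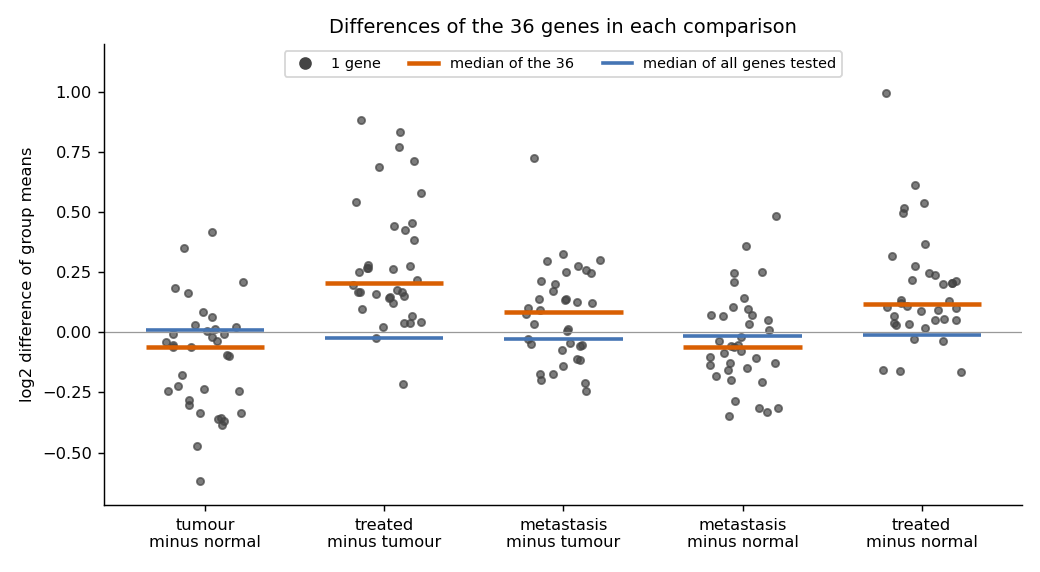
Log2 difference of group means (y axis) of each of the 36 ribosomal protein genes (dots) in the 5 comparisons (x axis), with the median of the 36 in orange and that of all 30142 genes in blue. The treated minus tumour dots lie above 0 but for 2, with a median of 0.21, and the other medians lie between -0.06 and 0.12.

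Rpl41, the smallest ribosomal protein, was the 1 gene with an unadjusted p under 0.05 and with no overlap between treated and tumour bladders. Its row was at 15.43, 15.38 and 15.46 on treated bladders and at 15.28 on PALBO-MET. Metastases 1 to 4 were at 15.08, 15.08, 13.97 and 13.78. Tumour bladders 1 to 7 were at 14.91, 15.07, 14.03, 14.05, 13.91, 15.09 and 15.09, and normal bladders 1, 2, 4, 5 and 6 at 15.08, 15.08, 13.95, 14.04 and 13.99. The levels fall into steps: the 8 arrays that stand apart lie at 13.78 to 14.05, and arrays of the remaining groups without palbociclib at 14.91 to 15.09. Normal 1, normal 2 and metastasis 1 shared the value 15.0849. Metastasis 2, tumour 6 and tumour 7 lay beside it at 15.0843, 15.0853 and 15.0889. Whether this row still follows the amount of RNA at such levels was not tested. Tumour 1, metastasis 2 and treated 2, which shared almost no equal rows with any array, lie on the steps of their groups at 14.91, 15.08 and 15.38. The difference from tumour bladders was 0.83 ± 0.36 (limma unadjusted p = 0.0345, adjusted p = 0.99995). The difference from normal bladders was 0.996 ± 0.385 (limma unadjusted p = 0.0186, adjusted p = 0.99997). Over the 12 arrays it was 0.39 and 0.34. The row ID names chromosome 14, while RefSeq places Rpl41 on chromosome 10. A dimmer row named Rpl41 whose ID is on chromosome 10 was at 7.99, 7.97 and 8.02 on treated bladders, and between 7.51 and 8.12 on all other arrays. On that row the difference was 0.16 from tumour bladders and 0.25 from normal bladders (limma unadjusted p = 0.177 and 0.0512), and tumour 3 lay above every treated bladder.

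**Figure D3:**
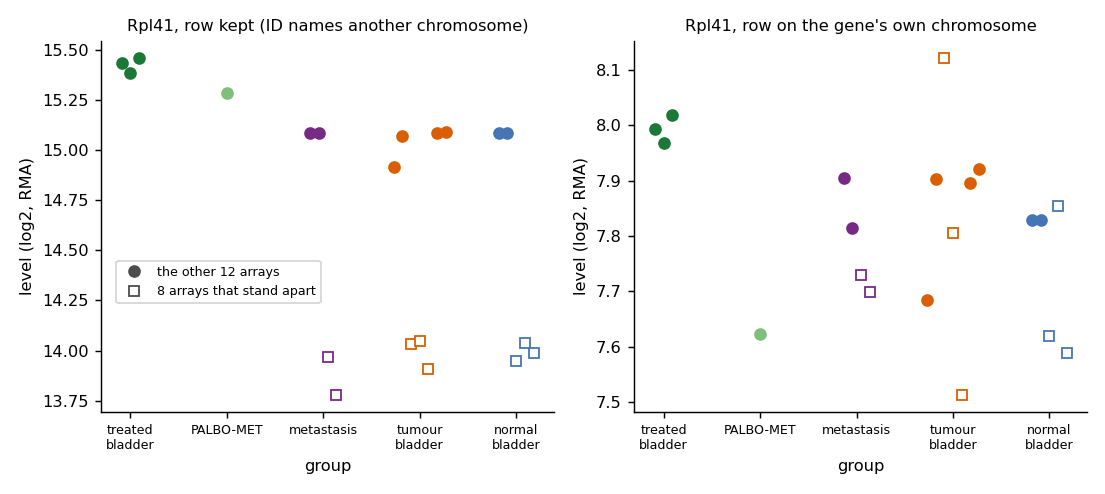
Log2 level of Rpl41 (y axis) by group (x axis) on the row with the highest mean, whose ID names chromosome 14 (left), and on the row of chromosome 10 (right), with open squares for the 8 arrays that stand apart. On the left the treated bladders at 15.38 to 15.46 lie above all other arrays and the squares lie at 13.78 to 14.05. On the right the treated bladders at 7.97 to 8.02 lie below 1 tumour bladder at 8.12.

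The row ID and the RefSeq chromosome differed for 4 further genes: Rpl12, Rpl27, Rpl31 and Rpl35. Over all rows with both, 99.7% named the same chromosome. For Rpl27 the row on the gene's own chromosome had a mean of 7.20 where the kept row had 10.40, and the treated minus tumour difference was 0.26 on it and 0.77 on the kept row. For Rpl35, of the large subunit, the means were 8.55 and 10.20 and the differences 0.39 and 0.43. Rpl12 and Rpl31 had no row on their own chromosome and kept the row they had. With the row on the own chromosome for Rpl27, Rpl35 and Rpl41, 34 of 36 genes were still higher in treated than in tumour bladders, and the median was 0.19.

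Against normal bladders, 31 of the 36 genes had a higher mean in treated bladders, with a median of 0.12, where 46.7% of all genes were higher and their median was -0.01. By unadjusted p under 0.05, 1 gene, Rpl41, was higher (0.209% of all genes) and 0 were lower (0.149%). The count was 2 with only the 2 groups fitted (0.750% of all genes) and 3 with array weights (9.99%). It was 0 with a trended prior (0.275%) or the row on the own chromosome (0.358%). Groups did not overlap for 2 that were higher (0.332% of all genes), Rpl41 and Rps19, and for 0 that were lower (0.318%). Without treated 3, 15 genes were higher and the median was -0.02. Without the 8 arrays that stand apart, which leaves normal 1 and 2, 15 were higher and the median was -0.04. On treated 1, 2 and 3 the genes above the normal mean numbered 28, 7 and 33.

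Rps19, a small-subunit protein whose loss causes Diamond-Blackfan anaemia in people, was at 6.56, 6.59 and 6.60 on treated bladders, against 6.54, 6.49, 6.28, 6.46 and 6.53 on normal bladders. The groups are next to each other with no overlap, and the difference was 0.12 ± 0.10 (limma unadjusted p = 0.225, adjusted p = 0.99997). Rplp0, the base of the stalk that recruits elongation factors, was at 9.39, 8.91 and 9.96 on treated bladders, against 8.77, 9.29, 8.93, 9.29 and 8.99 on normal bladders, a difference of 0.37 ± 0.29. Rpl12, which sits beside that stalk, has only a row whose ID names another chromosome. It was at 8.74, 8.55 and 9.31 on treated bladders, against 8.71, 8.39, 8.27, 8.33 and 8.03 on normal bladders, a difference of 0.52 ± 0.36. For both genes treated 2 lay within the normal range. Among the 5 genes with a lower mean, Rpl22 differed by -0.16 ± 0.15, Rps10 by -0.16 ± 0.21 and Rpl39 by -0.16 ± 0.32.

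Tumour bladders were set against normal bladders, the same mouse line without the virus. Of the 36 genes 11 had a higher mean in tumour bladders and 25 a lower one, with a median of -0.06, where 53.1% of all genes were higher and their median was 0.01. By unadjusted p under 0.05, 1 was higher (2.39% of all genes) and 2 were lower (1.86%). That count of 3 in either direction was 6 without tumour 7 (6.69% of all genes), and 5 with array weights (10.2%), the replicate block (5.88%) or quantile normalization renewed (4.96%). Within the 8 arrays that stand apart 16 were higher with a median of -0.03, and over the other 12 arrays 8 were higher with a median of -0.24. Without tumour 1, 16 were higher and the median was -0.04.

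The 2 lower genes were Rpl22 and Rpl39. Rpl22, which T cells need to develop in mice, was at 6.68, 6.79 and 7.24 (lowest, median and highest) on tumour bladders, against 7.32, 7.43, 6.99, 7.28 and 6.98 on normal bladders. Tumour 7 alone reached above the lowest normal bladders, and the difference was -0.34 ± 0.12 (limma unadjusted p = 0.0102, adjusted p = 0.998). It was -0.46 over the 12 arrays and -0.30 within the 8. Rpl39, a short protein of the exit tunnel through which the new chain leaves, was at 6.09, 6.85 and 7.88 on tumour bladders, against 7.86, 7.96, 7.51, 7.09 and 7.44 on normal bladders. Its difference was -0.62 ± 0.25 (limma unadjusted p = 0.0242, adjusted p = 0.998), -0.91 over the 12 arrays and -0.45 within the 8. Rpl7 had 6.38, 6.96 and 7.51 on tumour bladders, against 7.44, 7.43, 7.04, 7.36 and 7.37 on normal bladders, a difference of -0.36 ± 0.17 (limma unadjusted p = 0.05002, adjusted p = 0.998). For all 3 genes the lowest array of all was tumour 1.

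The 1 gene higher at that level was Rpl10l, the paralogue of Rpl10 that stands in for it in male germ cells. It was at 4.22, 4.59 and 5.01 on tumour bladders, against 4.16, 4.18, 4.30, 4.52 and 4.23 on normal bladders. The difference was 0.35 ± 0.13 (limma unadjusted p = 0.0142, adjusted p = 0.998), 0.37 over the 12 arrays and 0.39 within the 8. Its mean of 4.45 over all arrays was the lowest of the 36. Rpl12, on its row with the ID of another chromosome, differed by 0.42 ± 0.29 and Rps19 by 0.08 ± 0.08 in the same direction. Tumour and normal bladders overlapped for every one of the 36 genes, where 0.0829% of all genes were higher with no overlap and 0.0829% lower.

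Metastases and tumour bladders were compared to see how spread tumours differ from those in the bladder. Of the 36 genes 22 had a higher mean in metastases and 14 a lower one, with a median of 0.08, where 43.9% of all genes were higher and their median was -0.03. With unadjusted p under 0.05, 0 genes were higher (2.42% of all genes) and 0 lower (3.37%). That count in either direction was 3 without tumour 7 (6.36% of all genes). It was 1 without tumour 6 (9.43%), metastasis 1 (3.88%) or metastasis 3 (6.63%). It was 4 with the replicate block (6.28%), 3 within the 8 arrays (5.20%), 2 with array weights (6.53%) and 1 with quantile normalization renewed (6.19%). Without tumour 1, 13 were higher and the median was -0.05. With PALBO-MET counted as a metastasis 15 were higher and the median was -0.03. Over the 12 arrays 26 were higher with a median of 0.18, and within the 8 arrays 13 with a median of -0.06.

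Rpl32l had the smallest p of the 36, at 8.61, 9.01, 8.35 and 9.16 on metastases, against 6.94, 8.05 and 9.38 on tumour bladders, a difference of 0.73 ± 0.39 (limma unadjusted p = 0.0794, adjusted p = 0.861). Rps28, a small protein near the mRNA exit, was at 6.74, 7.25, 6.99 and 6.91 on metastases, against 6.60, 6.78 and 6.90 on tumour bladders, a difference of 0.20 ± 0.11. Rpl7 differed by 0.28 ± 0.18. In the other direction Rpl10l differed by -0.24 ± 0.14, Rps19 by -0.14 ± 0.08 and Rpl3l by -0.20 ± 0.15. Metastases and tumour bladders overlapped for every one of the 36 genes, where 0.123% of all genes were higher with no overlap and 0.382% lower. On the marker lists, 9 of 10 macrophage genes had a higher mean in metastases (median 0.63) and all 10 smooth muscle genes a lower one (-0.67), and their part in the ribosomal levels was not tested.

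Metastases set against normal bladders gave 14 genes with a higher mean and 22 with a lower one, with a median of -0.06, where 47.3% of all genes were higher and their median was -0.01. With unadjusted p under 0.05, 0 genes were higher (3.1% of all genes) and 0 lower (3.81%). That count in either direction was 1 without metastasis 2 (5.985% of all genes) and without the 8 arrays (6.67%). It was also 1 with array weights (12.96%) and with quantile normalization renewed (7.20%). The median ran from -0.12 to 0.03 as single arrays were left out, and without normal 1 it was 0.01 with 19 genes higher. Rps7, a small-subunit protein, had the smallest p. It was at 7.47, 8.32, 7.36 and 7.62 on metastases, against 8.15, 8.25, 7.61, 8.04 and 8.16 on normal bladders, a difference of -0.35 ± 0.22 (limma unadjusted p = 0.125, adjusted p = 0.767). Metastasis 2 was the highest of these 9 arrays, and the liver marker list averaged 8.06 on it, against 5.38 to 5.80 on the other metastases and 5.08 to 5.74 on normal bladders. Macrophage genes averaged 6.60 to 8.44 on metastases and 5.82 to 6.80 on normal bladders, and 7 of the 10 were higher with unadjusted p under 0.05. The part of either in the ribosomal levels was not tested. No gene of the 36 was free of overlap between metastases and normal bladders, where 1.06% of all genes were higher with no overlap and 1.79% lower. Rpl22 differed by -0.20 ± 0.13, Rpl3l by -0.21 ± 0.16, Rps28 by 0.14 ± 0.12, Rpl10a by 0.21 ± 0.23 and Rpl32l by 0.36 ± 0.42. For Rpl10a, of the large subunit, the difference was 0.46 over the 12 arrays and -0.05 within the 8.

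Levels of single genes spread over most of the scale of the array. The means over the 20 arrays ran from 4.45 for Rpl10l, 4.71 for Rpl3l, 5.05 for Rpl39l and 5.69 for Rps20 to 10.40 for Rpl27, 11.35 for Rpl37a, 11.41 for Rps26 and 14.69 for Rpl41. These are signals of separate probe sets, so their order is not an order of mRNA amounts. The SD over 20 arrays was largest for Rpl27 (1.44), Rps26 (1.22), Rpl37a (1.10) and Rpl35 (1.07). Of the 36 genes 22 had their lowest level on tumour 1, and 12 had their highest on tumour 7 and 9 on treated 3. The median of all rows of an array ran the other way at these ends, at 5.48 on tumour 1 (the highest of the 20) and 5.11 on treated 3 (the lowest), and was 5.25 on tumour 7. The part of that in the levels of the ribosomal genes was not tested. With each array centred on its median, 35 of 36 genes were higher in treated than in tumour bladders with a median of 0.27, and with quantile normalization renewed 29 were, with a median of 0.10.

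**Figure D4:**
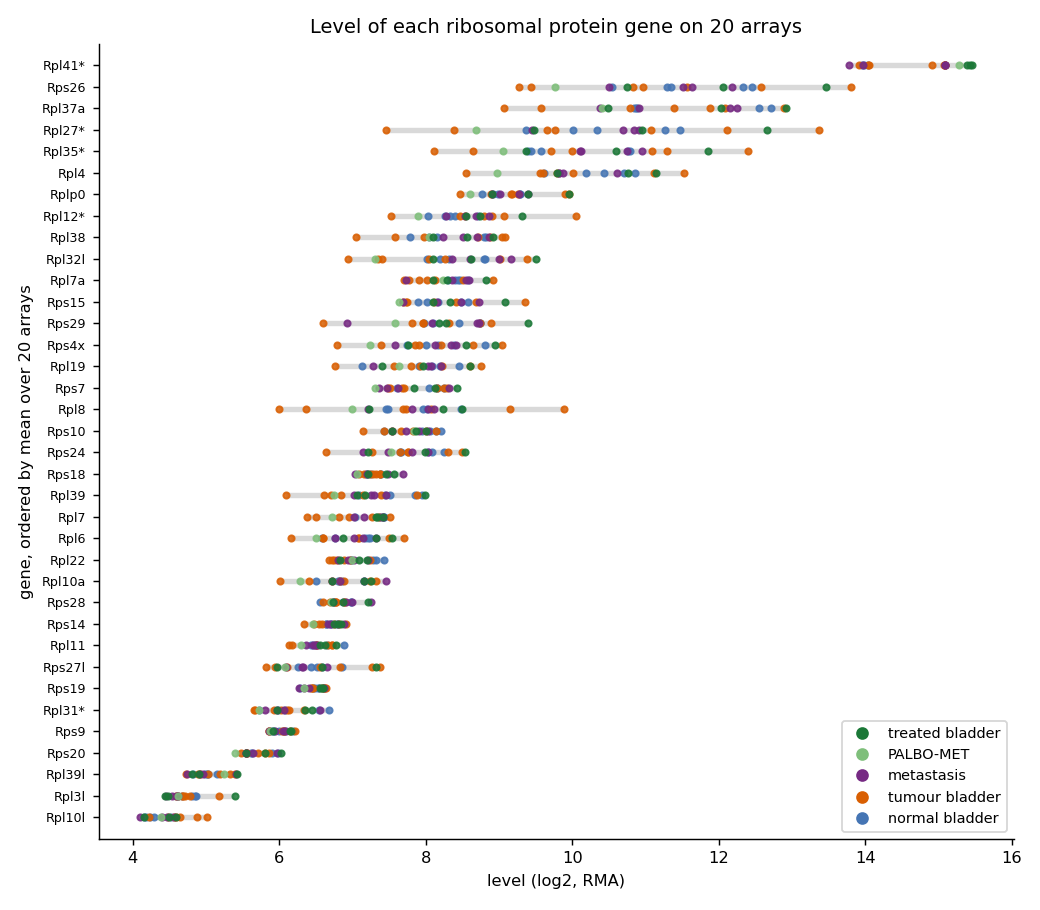
Log2 level (x axis) of each of the 36 ribosomal protein genes (y axis, ordered by mean) on the 20 arrays, 1 dot per array in the colour of its group, with a grey bar for the range and an asterisk where the row ID names another chromosome than the gene's. Rpl27, Rps26, Rpl37a and Rpl35 have wide bars, and for 22 genes the lowest dot is tumour 1.

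The genes moved together on the 12 arrays and not on the 8, where the lists of cell type markers also varied little. Pearson's r of each gene with the mean of the other 35 had a median of 0.87 over the 12 arrays, with 30 of 36 above 0.5 (83.3%), where 16.5% of 30106 other genes were above 0.5 in r with the mean of the 36. Over the 8 arrays the median was -0.07, with 4 of 36 above 0.5 (11.1%) and 13.7% of the other genes. These are descriptions with no test, since the arrays share groups and processing. The 8 arrays were also chosen for a low r with every other array over bright rows (level 7 or more). Genes of the 36, such as Rpl27 and Rps26, are among those rows. The contrast between the 12 and the 8 arrays is therefore partly set by that choice. The median SD of the 36 genes was 0.45 over the 12 arrays and 0.28 over the 8, where other genes had 0.27 and 0.25. Rpl27 (0.99), Rps4x (0.98), Rpl35 (0.98), Rpl32l (0.98) and Rpl6 (0.96) had the highest r over the 12 arrays, and Rps4x, the X-linked small-subunit gene, also had 0.47 over the 8.

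A few genes stood outside this shared course. Over the 12 arrays r was -0.82 for Rpl39l, -0.56 for Rpl10l, -0.38 for Rpl3l, -0.19 for Rps9, 0.07 for Rps19 and 0.24 for Rpl41. The first 3 are the paralogues restricted to testis or muscle, and Rps9 and Rps19 are core proteins whose SD over the 12 arrays was 0.12 and 0.11. Rps27l, a paralogue of Rps27, had 0.88. Rpl11, which with 5S RNA can bind and restrain Mdm2, had 0.64 and kept levels of 6.13 to 6.88 on all 20 arrays. It was at 6.78, 6.56 and 6.63 on treated bladders and at 6.30 on PALBO-MET. Metastases had 6.52, 6.49, 6.47 and 6.37, tumour bladders 6.13, 6.52 and 6.73 (lowest, median and highest), and normal bladders 6.50, 6.88, 6.44, 6.65 and 6.47.

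**Figure D5:**
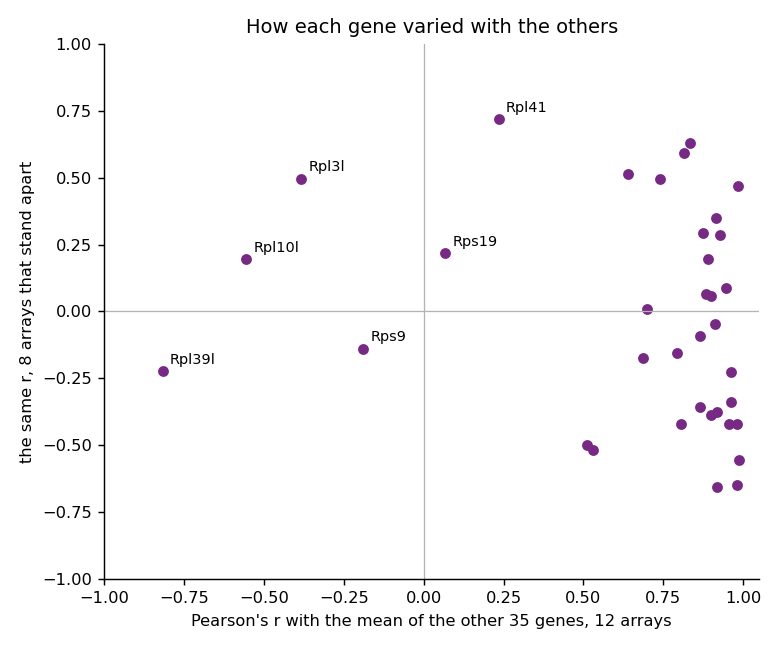
Pearson's r of each ribosomal protein gene with the mean of the other 35 over 12 arrays (x axis) and over the 8 arrays that stand apart (y axis), 1 dot per gene. Of the 36 dots 30 lie right of 0.5, and 19 lie below 0 on the y axis.

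Rpl3l, the form of Rpl3 that heart and skeletal muscle make, was at 5.40, 4.49 and 4.45 on treated bladders, against 4.60, 4.69 and 5.18 on tumour bladders. Treated 1 was the highest of all 20 arrays. The skeletal muscle list, 10 genes such as Ckm and Acta1, had a mean of 8.28 on treated 1, 5.30 on treated 2 and 5.25 on treated 3, against 5.67 to 6.41 on tumour bladders. Ckm, the creatine kinase of muscle, ran from 5.70 to 9.07 on treated bladders and from 5.71 to 7.57 on tumour bladders. Among tumour bladders, tumour 6 had the highest mean of the skeletal muscle list, 6.41, with Rpl3l at 4.62. Tumour 1 had the highest Rpl3l level, 5.18, with a list mean of 5.91. The part of muscle in the Rpl3l level was not tested.

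The 5 genes nearest to the mean of the 36 over the 20 arrays were all RefSeq pseudogenes: Gm10269 (r = 0.97), Rpl31-ps13 (0.96), Rpl28-ps3 (0.96), Gm14414 (0.96) and Rpl35a-ps7 (0.95). Over the 8 arrays alone their r was -0.41, -0.62, -0.37, 0.75 and 0.07 in that order. Pseudogenes named after ribosomal proteins (206 measured) had a median r of 0.91 over the 12 arrays. Translation factors (33 genes) had 0.83, mitochondrial ribosomal proteins (79) 0.47 and ribosome biogenesis genes (41) 0.46. The mitochondrial list was taken by symbol alone and holds pseudogenes such as Mrpl48-ps and Mrpl23-ps1. Among cell type lists, the ends were B cell genes at -0.77, T cell genes at -0.66, smooth muscle genes at 0.56 and luminal urothelial genes at 0.46. The remaining lists lay between -0.49 (lung) and 0.26 (fibroblasts), and other genes of the array had a median r of -0.27. B and T cell lists were dim, averaging 4.91 to 5.75 and 5.08 to 5.65 on the 12 arrays, whose medians over all rows were 5.11 to 5.48. The part of dim rows in these r was not tested. Over the 8 arrays the median r was 0.08 for pseudogenes, 0.23 for translation factors, 0.13 for mitochondrial ribosomal proteins and 0.30 for biogenesis genes. It was 0.16 for B cell genes, -0.02 for T cell genes, 0.01 for smooth muscle genes and 0.05 for luminal urothelial genes. The smooth muscle list ran from 6.80 to 8.36 on treated bladders and was at 4.93 on PALBO-MET. It ran from 5.56 to 6.75 on metastases, from 5.49 to 9.74 on tumour bladders and from 6.75 to 8.69 on normal bladders. Its 10 genes were all higher in treated than in tumour bladders (median 0.82), as were the 12 luminal urothelial genes (0.45), and the 10 macrophage genes were all lower (-0.39), none past an adjusted p of 0.05. The part of cell types in the ribosomal levels was not tested.

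Other genes of translation were set beside the 36, and none passed an adjusted p of 0.05. In treated minus tumour bladders, where 42.6% of all genes were higher, 30 of 33 translation factors were higher (median 0.17), 55 of 79 mitochondrial ribosomal proteins (0.04) and 179 of 206 pseudogenes (0.41). Ribosome biogenesis genes were split, with 22 of 41 higher (0.01). In tumour minus normal bladders, where 53.1% of all genes were higher, 14 of 33 translation factors were higher (-0.03), 42 of 79 mitochondrial ribosomal proteins (0.00), 28 of 41 biogenesis genes (0.07) and 55 of 206 pseudogenes (-0.19). The translation factors averaged 7.74, 7.15 and 7.97 on treated bladders 1, 2 and 3 and 7.07 on PALBO-MET, against 6.80 to 8.05 on tumour bladders and 7.32 to 7.55 on normal bladders. Treated 2 was again the lowest of the treated arrays. Among the other lists of translation the smallest unadjusted p was for Mrps27, a small-subunit protein of the mitochondrial ribosome, at a mean of 5.91 on tumour bladders and 6.26 on normal bladders (limma unadjusted p = 0.000998, adjusted p = 0.998). Rpl31-ps8, a pseudogene row, was at a mean of 15.64 on treated bladders and 14.45 on tumour bladders. The difference was 1.19 (limma unadjusted p = 0.0145, adjusted p = 0.99995). Its mean on normal bladders was 14.52. These means resemble those of the kept Rpl41 row, at 15.43, 14.59 and 14.43 on treated, tumour and normal bladders. The part of the array sets in this difference was not tested.

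PALBO-MET, the lone metastasis with palbociclib in its title, had lower ribosomal protein levels than most arrays. Of the 36 genes 5 lay above the tumour mean on it and 3 above the normal mean, and 3 had their lowest level of the 20 arrays there. Rps4x was at 7.25 on PALBO-MET, against 8.34, 8.41, 7.58 and 8.12 on metastases, and Rpl4, part of the exit tunnel, at 8.97 on PALBO-MET, against 9.87, 10.62, 9.82 and 9.81 on metastases. Macrophage genes averaged 8.19 and smooth muscle genes 4.93 on this array, where metastases had 6.60 to 8.44 and 5.56 to 6.75. With 1 array there is no test.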

How the data were processed

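RNA of 20 fixed, paraffin-embedded samples was hybridised to Affymetrix whole-transcript arrays, per the labels' protocols. The deposited values are log2 levels that the authors made with RMA in Affymetrix Expression Console, per the submitters' processing notes, which give no versions. Base 2 was taken because RMA gives it. For arrays, their number limits the precision, and no depth exists. Of 65956 rows, 30604 with exactly 1 annotated symbol were used (827 symbols brought up to date), and the row with the highest mean was kept for each of 30142 genes. Groups came from titles. A linear model over all 5 groups was fitted in limma 3.58.1 (R 4.3.3) with eBayes, two-sided, with Benjamini-Hochberg adjustment over all genes. It was tested on simulated data. The rule names the 3 genes with the smallest p in each direction of each comparison, the 4 brightest, dimmest and most variable, set paralogues and stalk and 5S proteins, the 5 nearest genes and the 3 with the smallest p in each list; the text gives a part of these. Members and lists were chosen with earlier results of these data known. The 8 arrays that stand apart were set by an SD over 0.30 in rows of level 4.5 to 5.0 and r under 0.25 in 5317 bright rows (level 7 or more). The other floxed alleles of the line are not reported here. Alternatives are given in the closing section.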

Additional observations from a re-analysis of the deposited data

Results flagged for a closer look

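Levels of the 23 named ribosomal protein genes, and their mean over the 36, were tested within normal bladders, tumour bladders and metastases for an array far from the rest of its group by Dixon's ratio. Of 72 tests 3 exceeded the limit, and chance alone exceeds it in about 1 of 20. Rpl3l was at 5.182 on tumour bladder 1, where the other tumour bladders lay between 4.60 and 4.79. Rpl7 was at 7.036 on normal bladder 4, against 7.36 to 7.44 on the other normal bladders. Rpl27 was at 9.446 on metastasis 4, against 10.69 to 10.91 on the other metastases.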

How the results depend on the processing

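No ribosomal protein gene was called under any alternative: fits on only the 2 groups, array weights, a trended and robust prior, dim genes left out (below 5.099, leaving 19898 genes and 33 of the 36), quantile normalization renewed, arrays centred, the mean of all rows, a replicate block, each array left out in turn, PALBO-MET as a metastasis, and fits without, within or with a term for the 8 arrays that stand apart. The row on a gene's own chromosome was added after seeing the data and called none either. Over all genes, 1 passed for metastasis minus normal with only the 2 groups, and without the 8 arrays 3 passed for metastasis minus tumour and 3 for metastasis minus normal. Rpl39l (treated minus tumour) was 0.040 with quantile normalization renewed and 0.035 with arrays centred, and -0.22 to 0.094 with single arrays left out. Rpl39 (treated minus normal) was -0.45 to 0.010 with single arrays left out. Within the 8 arrays, metastasis minus normal was -0.051 for Rpl10a and 0.00071 for Rpl22. Leaving out single arrays gave medians of 0.08 to 0.41 (treated minus tumour), -0.02 to 0.33 (treated minus normal), -0.15 to -0.03 (tumour minus normal), -0.05 to 0.18 (metastasis minus tumour) and -0.12 to 0.03 (metastasis minus normal). The cause of these shifts was not tested.

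The labels do not say whether arrays with the same replicate number are linked. Over 20 same-numbered pairs, deviations correlated between -0.51 and 0.33, and 1 pair, tumour 2 and treated 2, exceeded 0.1. Deviations from the means of such small groups cannot exclude shared animals or batches. With the replicate block the medians were 0.37 for treated minus tumour, 0.13 for treated minus normal, -0.17 for tumour minus normal, 0.20 for metastasis minus tumour and -0.04 for metastasis minus normal, with 0 of the 36 genes and 0 of all genes called.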
